A study of Mus musculus with 16 samples.

Results

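Dendritic cells take up antigen, mature when they sense danger signals or CD40 engagement, and carry the antigen to lymph nodes, where they prime T cells. Type 1 conventional dendritic cells cross-present antigen to CD8+ T cells and type 2 cells mainly address CD4+ T cells, and both depend on the growth factor receptor Flt3. Maturing cells switch on Ccr7, the receptor that guides them towards lymphoid tissue, and produce IL-12 and chemokines for T cells. The genes described here are 10 dendritic cell and lymphoid-homing genes, chosen by symbol: Flt3, Zbtb46, Xcr1, Clec9a, Cd209a, Fscn1, Ccr7, Il12b, Ccl17 and Ccl22. Probe sets annotated to one of these genes alone were taken, and the probe set with the highest mean over all arrays represented its gene. Of the 10 genes, 9 were measured, by 16 of 45037 probe sets, and no probe set was annotated to Clec9a, a receptor for dead cells on type 1 dendritic cells.

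Tumors of PDA30364, a C57BL/6-based pancreatic tumor line from a genetically engineered mouse model, were grown under the skin of C57BL/6-Ly5.1 mice that were 6 to 12 weeks old at injection. Mice received GEM (gemcitabine, a nucleoside analog) at 120 mg/kg on treatment days 1, 5 and 12 together with an agonistic anti-CD40 antibody, given on days 3, 4 and 6 and again on day 14 (GEM/anti-CD40), GEM with isotype control antibody (GEM), vehicle with anti-CD40 antibody (anti-CD40), or vehicle with isotype control antibody (control). Pieces of whole tumor, 4 per group, were taken 22 or 23 days after inoculation and hybridized to 1 Affymetrix mouse array each. The model is 1 cell line grown outside the pancreas.

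Values are log2 intensities, so that a difference of 1 is a doubling of intensity. In these bulk samples, fewer cells of a type and less RNA per cell cannot be told apart. The number of arrays, 4 per group, limits the precision, and p-values measure the spread between tumors. Genes of tumor epithelium had a list mean of 11.6 to 12.0 log2 intensity in GEM/anti-CD40 tumors and 11.5 to 11.8 in control tumors. Skin keratinocyte genes averaged 8.97 in control replicate 2 and 7.40 in anti-CD40 replicate 2, and skeletal muscle genes averaged 12.1 in GEM/anti-CD40 replicate 4. These 3 arrays stood apart from the other arrays of their groups. Results without them are given where a member turned direction or the count of probe sets called changed. Skeletal muscle genes also averaged 7.73 in GEM replicate 4, against 4.79 to 5.51 in the other GEM tumors, and 7.40 in control replicate 4. Neither array was among the 3.

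Promoters of the members that code for secreted proteins are shown because Il12b and Ccl22 had the largest differences among the 9 genes between GEM/anti-CD40 and control tumors, while Ccl17, which shares the receptor of Ccl22, differed little. Each is 250 bases before to 50 after the gene start, from RefSeq on GRCm38.p6: Il12b lies at chr11:44399813-44400112, Ccl22 at chr8:94745434-94745733 and Ccl17 at chr8:94810203-94810502, all on the plus strand. Capitals mark matches to motifs searched on both strands.
Il12b: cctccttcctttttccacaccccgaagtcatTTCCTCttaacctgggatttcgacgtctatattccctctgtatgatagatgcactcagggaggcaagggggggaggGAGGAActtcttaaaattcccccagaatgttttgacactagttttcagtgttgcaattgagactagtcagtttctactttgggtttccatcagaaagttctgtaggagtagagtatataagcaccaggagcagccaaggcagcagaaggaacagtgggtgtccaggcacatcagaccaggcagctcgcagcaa
Ccl22: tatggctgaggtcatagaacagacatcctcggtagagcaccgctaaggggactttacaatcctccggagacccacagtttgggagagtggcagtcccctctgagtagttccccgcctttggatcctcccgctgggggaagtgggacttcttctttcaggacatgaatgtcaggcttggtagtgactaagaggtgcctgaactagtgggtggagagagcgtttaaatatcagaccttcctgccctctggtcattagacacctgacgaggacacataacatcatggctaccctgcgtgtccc
Ccl17: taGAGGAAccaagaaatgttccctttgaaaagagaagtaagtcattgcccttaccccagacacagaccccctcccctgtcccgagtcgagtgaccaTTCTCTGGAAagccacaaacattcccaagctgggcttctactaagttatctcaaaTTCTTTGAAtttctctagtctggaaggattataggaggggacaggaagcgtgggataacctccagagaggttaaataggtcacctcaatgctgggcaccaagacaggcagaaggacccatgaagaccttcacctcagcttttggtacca
The motifs were the kappa B consensus, the IRF motif (GAAA, any 2 bases, GAAA), the PU.1 motif GAGGAA, the STAT motif TTCNNNGAA and the STAT6 motif (TTC, any 4 bases, GAA), none of which overlapped another in these promoters. The Il12b promoter held the PU.1 letters at 2 places, and the Ccl17 promoter held the PU.1, STAT and STAT6 letters once each. Of 32851 promoters of this length, 28.3% held the PU.1 letters, 8.30% the STAT letters and 6.95% the STAT6 letters, while the kappa B consensus occurred in 4.50% and the IRF motif in 3.44%. Promoters were found for 9 of the 10 genes, Ccr7 being the one not matched. A match is a string of letters and does not show that a factor binds there.

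Ccl22, Il12b and Ccr7, genes of maturing dendritic cells, were higher than in control tumors, and Flt3, Xcr1 and Cd209a, which mark dendritic cells and their subsets, were lower. Zbtb46, Fscn1 and Ccl17 overlapped between the groups with small differences of means. The probe sets of Flt3, Zbtb46, Xcr1, Cd209a and Il12b lay below the median intensity of all probe sets, at the 45.4, 48.2, 26.7, 37.7 and 21.5 percentiles. The deposited values carry no detection call, so whether these 5 were above background was not tested. No difference passed an adjusted p of 0.05 (limma with Benjamini-Hochberg adjustment over 45037 probe sets), whereas 0.0178% of all probe sets did, and 6 of the 9 genes had an unadjusted p under 0.05, against 9.58% of all probe sets. In 5 genes the groups did not overlap, against 5.1% of all probe sets. Of these, 3 lay above the controls, against 2.25% of all probe sets, and 2 below, against 2.86%. These shares are a description, since the genes were chosen with earlier results of these tumors known.

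**Figure D1:**
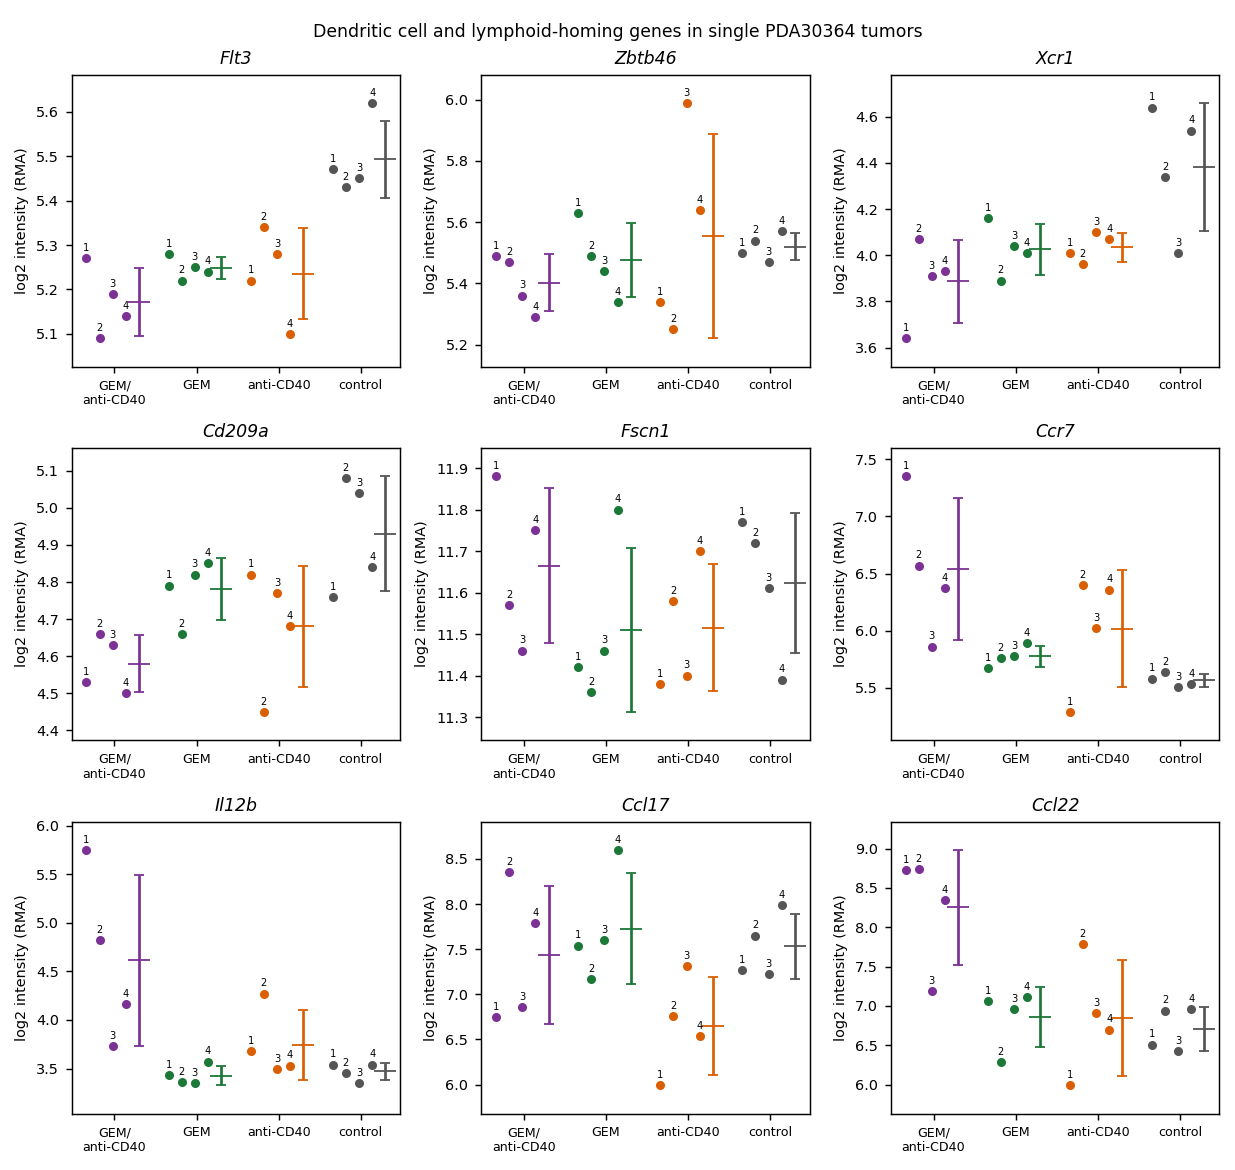
log2 intensity of each of the 9 measured genes in 16 tumors, 1 panel per gene with its own axis that does not start at 0; points are single tumors labelled with their replicate number, bars mean and SD of 4 tumors. Ccl22, Il12b and Ccr7 of GEM/anti-CD40 tumors lie above all control tumors, and Flt3 and Cd209a below them.

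Flt3, the receptor of the main dendritic cell growth factor, measured 5.27, 5.09, 5.19 and 5.14 log2 intensity in GEM/anti-CD40 tumors. It was 5.28, 5.22, 5.25 and 5.24 in GEM tumors, 5.22, 5.34, 5.28 and 5.10 in anti-CD40 tumors, and 5.47, 5.43, 5.45 and 5.62 in control tumors. Every treated tumor thus lay below every control tumor, while the treated groups overlapped one another. Compared with controls, the log2 change was -0.32 (SE 0.07) in GEM/anti-CD40 tumors, with an adjusted p of 0.36 by limma, -0.24 (SE 0.06) in GEM tumors, with an adjusted p of 0.753 by limma, and -0.26 (SE 0.08) in anti-CD40 tumors, with an adjusted p of 0.807 by limma. Of all probe sets, 1.63% lay below the controls without overlap in GEM tumors and 1.62% in anti-CD40 tumors.

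Xcr1, the receptor by which type 1 dendritic cells sense Xcl1 from T and NK cells, was 3.64, 4.07, 3.91 and 3.93 in GEM/anti-CD40 tumors. GEM tumors held 4.16, 3.89, 4.04 and 4.01, anti-CD40 tumors 4.01, 3.96, 4.10 and 4.07, and control tumors 4.64, 4.34, 4.01 and 4.54. Control replicate 3 was as low as the treated tumors, so that the groups overlapped. The log2 change against controls was -0.49 (SE 0.14), -0.36 (SE 0.13) and -0.35 (SE 0.13) in GEM/anti-CD40, GEM and anti-CD40 tumors, with adjusted p of 0.444, 0.826 and 0.807 by limma.

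Cd209a, a C-type lectin of type 2 and monocyte-derived dendritic cells in mouse, was 4.53, 4.66, 4.63 and 4.50 in GEM/anti-CD40 tumors. GEM tumors had 4.79, 4.66, 4.82 and 4.85, anti-CD40 tumors 4.82, 4.45, 4.77 and 4.68, and control tumors 4.76, 5.08, 5.04 and 4.84. All GEM/anti-CD40 tumors were below the controls, with a log2 change of -0.35 (SE 0.09) and an adjusted p of 0.407 by limma, while GEM and anti-CD40 tumors overlapped with the controls. Zbtb46, a transcription factor of conventional dendritic cells, ranged from 5.29 to 5.49 in GEM/anti-CD40 tumors and from 5.47 to 5.57 in control tumors. Its log2 change was -0.12 with a 95% interval from -0.27 to 0.03, and its 3 other probe sets changed by -0.04 to 0.0025.

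Ccr7, the receptor for the lymph node chemokines, measured 7.35, 6.57, 5.86 and 6.37 in GEM/anti-CD40 tumors. GEM tumors measured 5.67, 5.76, 5.78 and 5.89, anti-CD40 tumors 5.29, 6.40, 6.02 and 6.36, and control tumors 5.58, 5.64, 5.51 and 5.53. All GEM/anti-CD40 tumors lay above the controls, and replicate 1 was the highest of the 16 tumors. Ccr7 was higher than in controls by 0.97 (SE 0.26) on the log2 scale, a 1.96-fold difference with an adjusted p of 0.415 by limma. Without GEM/anti-CD40 replicate 1, the difference was 0.70. GEM tumors also lay above the controls without overlap, by 0.21 (SE 0.07), with an adjusted p of 0.786 by limma, where 1.58% of all probe sets lay above. In anti-CD40 tumors the difference of 0.45 (SE 0.22) covered a low replicate 1 and 3 tumors above the controls.

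Il12b, which codes for the p40 chain shared by IL-12 and IL-23, measured 5.75, 4.82, 3.73 and 4.16 in GEM/anti-CD40 tumors. It was 3.43, 3.36, 3.35 and 3.57 in GEM tumors, 3.68, 4.27, 3.49 and 3.53 in anti-CD40 tumors, and 3.54, 3.45, 3.35 and 3.54 in control tumors. All GEM/anti-CD40 tumors lay above all GEM and control tumors, which were close to one another, and the spread among them was the widest of the groups. Anti-CD40 replicate 2 stood above its group. The difference from controls was 1.15 (SE 0.37) on the log2 scale, with an adjusted p of 0.457 by limma, and 0.77 without GEM/anti-CD40 replicate 1. The other Il12b probe set read 4.41, 3.73, 3.38 and 3.36 in GEM/anti-CD40 tumors and 3.40, 3.54, 3.54 and 3.47 in controls, a log2 change of 0.23 in which the groups overlapped. The probe sets therefore disagreed on size. Since the control level may be background, no fold is given for Il12b. Fscn1, an actin-bundling protein of mature dendritic cells that tumor cells can also make, ranged from 11.46 to 11.88 in GEM/anti-CD40 tumors and from 11.39 to 11.77 in controls, with a log2 change of 0.04 and a 95% interval from -0.22 to 0.30. The other Fscn1 probe sets changed by 0.06 to 0.21 against controls. Against anti-CD40 tumors they changed by 0.165 to 0.375, with an adjusted p of 0.937 for each by limma.

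Ccl22, a ligand of Ccr4 that draws regulatory T cells, measured 8.73, 8.74, 7.19 and 8.35 in GEM/anti-CD40 tumors. GEM tumors had 7.06, 6.29, 6.96 and 7.11, anti-CD40 tumors 5.99, 7.79, 6.91 and 6.70, and control tumors 6.51, 6.94, 6.43 and 6.96. Combination tumors lay above all GEM and control tumors, with replicate 3 lower than the others, and only anti-CD40 replicate 2 reached into their range. Ccl22 was higher than in controls by 1.54 (SE 0.33), a 2.91-fold difference with an adjusted p of 0.358 by limma. Leaving out 1 array at a time, the difference ranged from 1.38 to 1.90, with adjusted p from 0.0315 to 0.698 by limma. The lowest adjusted p came without GEM/anti-CD40 replicate 3, the lowest tumor of its group, where the difference was 1.90. It was the 1 alternative in which a member passed. Ccl17, the other Ccr4 ligand, measured 6.75, 8.35, 6.86 and 7.79 in GEM/anti-CD40 tumors, 7.54, 7.17, 7.60 and 8.60 in GEM tumors, 5.99, 6.76, 7.31 and 6.54 in anti-CD40 tumors, and 7.27, 7.65, 7.22 and 7.99 in controls. Its log2 change was -0.10 in GEM/anti-CD40 tumors, with a 95% interval from -0.89 to 0.70; whether it differed from Ccl22 in its change was not tested. In anti-CD40 tumors the log2 change of Ccl17 against controls was -0.88 (SE 0.27), with an adjusted p of 0.807 by limma and overlapping groups, while that of Ccl22 was 0.14, or -0.18 without anti-CD40 replicate 2.

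**Figure D2:**
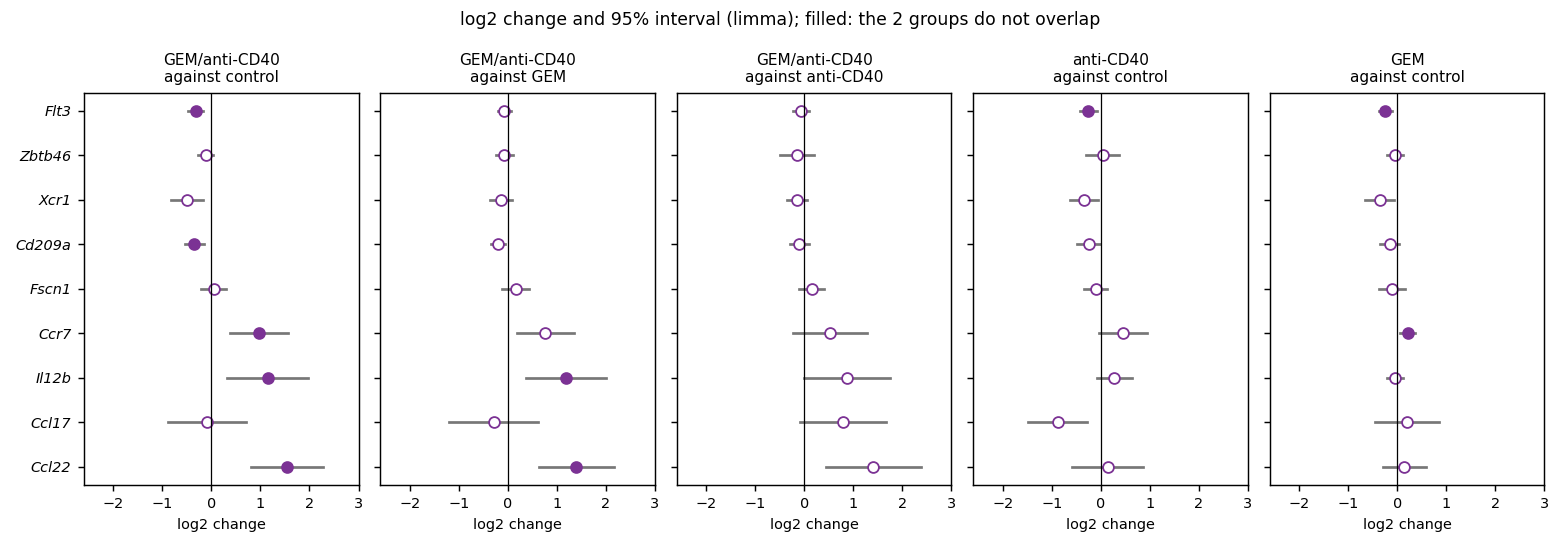
log2 change of the 9 genes (points) with its 95% interval from limma (lines) in 5 comparisons; filled points mark groups that do not overlap. Ccl22 is at 1.54, 1.40 and 1.41 in the comparisons of GEM/anti-CD40 with control, GEM and anti-CD40 tumors.

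GEM/anti-CD40 tumors were next compared with each single treatment. Compared with GEM, Ccl22 was higher by 1.40 (SE 0.34) and Il12b by 1.19 (SE 0.36), both without overlap, and Ccr7 by 0.76 (SE 0.26). Adjusted p were 0.228, 0.284 and 0.321 by limma. Cd209a differed by -0.20 (SE 0.07), while Flt3, Xcr1, Zbtb46, Fscn1 and Ccl17 differed by less than 0.3. None of the 9 passed, and 4 had an unadjusted p under 0.05, against 11.6% of all probe sets, none of which passed the adjusted threshold. Of all probe sets 2.85% lay above without overlap.

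Compared with anti-CD40 tumors, Ccl22 was higher by 1.41 (SE 0.43), Il12b by 0.87 (SE 0.39) and Ccl17 by 0.79 (SE 0.39), all with overlapping groups. For Ccl22 and Il12b only anti-CD40 replicate 2, an array with skin genes, overlapped. It measured 7.79 and 4.27, against lowest GEM/anti-CD40 values of 7.19 and 3.73. Whether its skin content had a part in this overlap was not tested. The adjusted p was 0.937 for each by limma, and 1 of the 9 genes had an unadjusted p under 0.05, against 4.6% of all probe sets. With all arrays kept, no member was without overlap, against 2.63% of all probe sets. The comparisons of single treatments with controls gave 4 of 9 genes in anti-CD40 tumors and 3 of 9 in GEM tumors at that level, against 6.08% and 5.72% of all probe sets, and no gene passed the adjusted threshold. These comparisons share the control or the GEM/anti-CD40 tumors. For the interaction of the 2 treatments, which asks whether their changes add on the log2 scale, Ccl22 gave 1.26 (SE 0.51) with an adjusted p of 0.89 by limma. Of the 9 genes, 8 were above 0 in that contrast, where the median over all probe sets was -0.01. Only 1 had an unadjusted p under 0.05, against 5.24% of all probe sets. The lean was not particular to these genes, since 9 of 9 MHC class II and 12 of 13 macrophage and monocyte genes were also above 0, but 1 of 10 fibroblast genes. Flt3, Xcr1 and Cd209a were above 0 there although lower than in controls in all 3 treated groups.

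Genes that act with the members were read from the same fits; 12 of 14 had a probe set of their own. Cd40, the receptor that the antibody engages, measured 8.36, 7.50, 6.08 and 6.82 in GEM/anti-CD40 tumors. It averaged 7.19 ± 0.97 in GEM/anti-CD40 tumors, 5.95 ± 0.26 in GEM tumors, 6.34 ± 0.44 in anti-CD40 tumors and 6.05 ± 0.20 in control tumors (SD, n = 4 each). It was higher than in controls by 1.14 (SE 0.41), and Irf8, a transcription factor of type 1 and plasmacytoid dendritic cells, by 1.04 (SE 0.41), with overlapping groups in both. GEM/anti-CD40 replicate 3 was the lowest of its group in Ccr7, Il12b, Ccl22, Fscn1, Cd40, Irf8, Cd80, Cd83, Cd86, Batf3, Il12a, Xcl1 and Ccr4. In the other members and in Ccl5, Irf4 and Cd207 another replicate was the lowest. Replicate 3 also had the group's lowest list means of macrophage and monocyte genes (8.52) and fibroblast genes (9.12). Its mean of tumor epithelium genes was the group's highest (12.0). Batf3, the other transcription factor of type 1 cells, differed by 0.18 (SE 0.18), and Irf4, which type 2 cells use, by -0.10 (SE 0.11). Ccl5, a chemokine of T and NK cells, was higher in GEM/anti-CD40 tumors by 2.10 (SE 0.63) and in anti-CD40 tumors by 1.71 (SE 0.39), while in GEM tumors it differed by -0.46 (SE 0.29). Cd80, a costimulatory ligand, was higher in the combination by 0.78 (SE 0.27), without overlap. Cd83, a maturation marker, measured 5.98, 6.58, 6.16 and 6.70 in anti-CD40 tumors and 7.84, 7.13, 6.73 and 7.72 in controls, a log2 change of -1.0 (SE 0.26) without overlap, and in GEM/anti-CD40 tumors its change was -0.14 (SE 0.28). Cd207, a lectin of Langerhans cells, had a log2 change of -0.24 (SE 0.08) in the combination. The remaining genes, Cd86, Il12a, Xcl1 and Ccr4, changed by 0.45, 0.20, 0.09 and -0.19 there. None of these genes passed an adjusted p of 0.05 in any of the comparisons by limma.

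**Figure D3:**
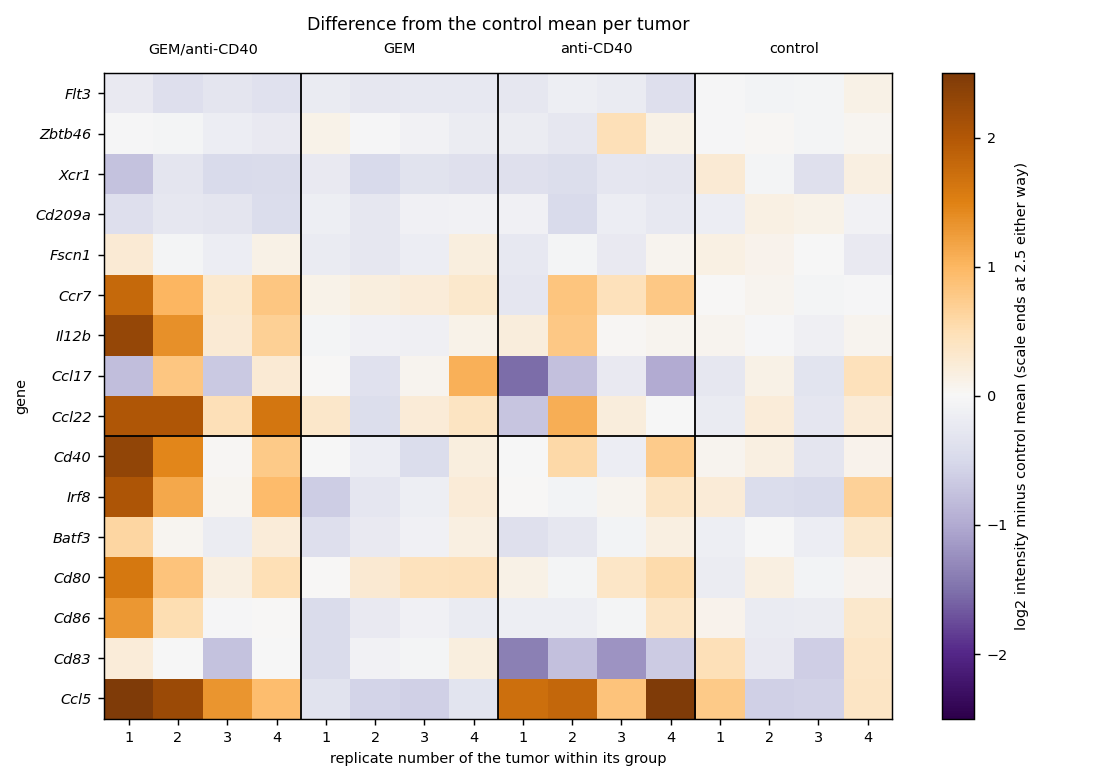
Difference of each tumor's log2 intensity from the mean of control tumors, for the 9 genes (above the line) and 7 genes that act with them; columns are tumors by group and replicate, and the colour scale ends at 2.5, beyond which Ccl5 of GEM/anti-CD40 replicate 1 lies. Ccr7, Il12b, Ccl22 and Cd40 are highest in GEM/anti-CD40 replicates 1 and 2.

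Larger lists of related genes were read from the same fits, and none of their genes passed an adjusted p of 0.05 in any comparison. Of 27 other dendritic cell maturation genes, 21 were higher and 6 lower in GEM/anti-CD40 than in control tumors, 15 higher at an unadjusted p under 0.05. The median log2 change was 0.44, against -0.02 over all probe sets, and 4.34% of all probe sets were higher at that level. Tnfrsf9, a costimulatory receptor, had the smallest p of that list, with a log2 change of 0.69 and an adjusted p of 0.151 by limma. Of 18 other conventional dendritic cell genes, 10 were higher and 8 lower with a median of 0.11, the smallest p being that of Sirpa at 0.99, and 11 plasmacytoid genes had a median of 0.15, the smallest p being that of Bst2 at 0.82. The list of IL-12 family and receptor genes, which also holds the downstream genes Stat4, Tbx21 and Ifng, had a median of 0.53 over 8 measured genes, with the smallest p in Il23a at 0.37. Lymphoid homing genes had a median of 0.06 over 18 genes, with the smallest p in S1pr1 at 0.54. MHC class II genes had a median of 0.58, with 8 of 9 higher and the smallest p in Ctss at 0.72, a protease that prepares MHC class II for loading. Only 1 of them had an unadjusted p under 0.05 by limma. Their list mean ranged from 8.93 to 10.2, overlapping control tumors at 8.40 to 9.47. Of 18 growth and recruitment factors, 13 were higher with a median of 0.43 and the smallest p in the interleukin 4 receptor gene Il4ra at 0.42, and 9 had an unadjusted p under 0.05.

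Compared with GEM tumors, 21 of the 27 maturation genes were higher in GEM/anti-CD40 tumors, with a median of 0.40, against -0.03 over all probe sets, and the gene with the smallest p was Nfkb2, a subunit of the alternative NF-kappa B pathway, at 0.40. All 9 MHC class II genes were higher there, with a median of 1.03. Compared with anti-CD40 tumors, 25 of the 27 maturation genes were higher, with a median of 0.32, again with the smallest p in Nfkb2 at 0.34, against -0.01 over all probe sets. In the interaction, 22 of the 27 were above 0, with a median of 0.26, against -0.01 over all probe sets.

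In anti-CD40 tumors the median of the maturation genes was 0.08, and in GEM tumors -0.01. MHC class II genes had medians of 0.27 in anti-CD40 and -0.54 in GEM tumors, where all 9 were lower than in controls. The list mean ranged from 8.19 to 8.75 in GEM tumors, overlapping control tumors at 8.40 to 9.47. The maturation genes with the smallest p were Cd83 at -1.0 in anti-CD40 and Socs2 at 0.60 in GEM tumors. Of the 18 other conventional dendritic cell genes, 13 were lower in anti-CD40 and 14 in GEM tumors. Btla had the smallest p of that list in both, at -0.775 and -0.82.

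Markers of other cells were read beside these genes. All 13 macrophage and monocyte genes were higher in GEM/anti-CD40 than in control tumors, with a median of 0.47, the smallest p being that of the scavenger receptor Msr1 at 1.37, and the mean of the list ranged from 8.52 to 9.53, against 8.10 to 8.67. T and NK cell genes ranged from 5.79 to 6.63 against 5.67 to 6.25, and B cell genes from 4.79 to 5.22 against 4.83 to 5.10. All 6 neutrophil genes and all 10 endothelial cell genes were higher in GEM/anti-CD40 tumors as well, with medians of 0.51 and 0.41, against -0.02 over all probe sets. Of them, 3 and 5 had an unadjusted p under 0.05 by limma, while 4.34% of all probe sets were higher at that level. The mean of the neutrophil list ranged from 6.84 to 7.45, against 6.20 to 6.91 in control tumors, and that of the endothelial list from 6.91 to 7.69, against 6.54 to 6.93. Their part in the differences of Ccr7, Il12b and Ccl22 was not tested.

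**Figure D4:**
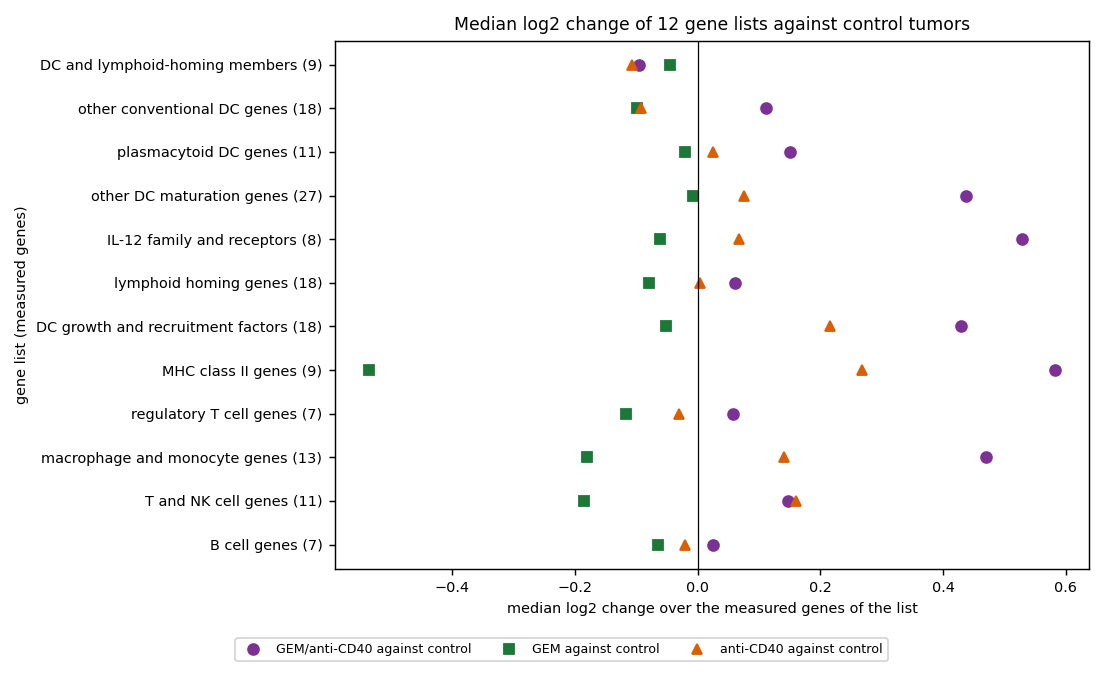
Median log2 change against control tumors of 12 gene lists (rows, with the number of genes measured) for GEM/anti-CD40 (circles), GEM (squares) and anti-CD40 (triangles). The maturation list lies at 0.44 in GEM/anti-CD40 tumors, against 0.08 in anti-CD40 and -0.01 in GEM tumors. It is not alone in GEM/anti-CD40 tumors. MHC class II genes lie at 0.58, the IL-12 list at 0.53, macrophage and monocyte genes at 0.47 and growth and recruitment factors at 0.43. The remaining lists lie from -0.095 to 0.15.

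The genes that most resembled each member were found by the correlation over 16 arrays after each group's mean was removed, a description that shares array and tumor between the genes. Each was picked as the highest r among 18193 named genes, members left out, so a high r can arise without any link. How high the best r would be by chance was not tested. Ccr7 went with Tank (r 0.91), Tifab (0.88) and Tmem123 (0.86), and Il12b with Slc2a6 (0.93), Adgb (0.91) and Synj1 (0.91). Ccl22 went with Sav1 (0.83), and Ccl17 with Ezh2 (0.89). Flt3 went with Ikbke (0.87), Zbtb46 with Serpinf2 (0.91), Xcr1 with Srp54b (0.80), Cd209a with Adh4 (0.89) and Fscn1 with Cldnd2 (0.88). Within groups, Ccr7 correlated with Il12b at 0.77 and with Ccl22 at 0.75, and Il12b with Ccl22 at 0.67, values that rest mostly on the GEM/anti-CD40 and anti-CD40 tumors. Il12b had an SD of 0.88 in GEM/anti-CD40, 0.10 in GEM, 0.36 in anti-CD40 and 0.09 in control tumors, and Ccr7 of 0.62, 0.09, 0.51 and 0.06. Ccl17 and Ccl22 correlated at 0.56, and Cd40 with Il12b at 0.88 and with Ccr7 at 0.85. Flt3, Xcr1 and Cd209a showed no such pattern, with r from -0.41 to -0.05 among them.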

How the data were processed

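Total RNA of whole tumors was labelled and hybridized to Affymetrix mouse genome arrays, and the authors processed the arrays with RMA, so that the deposited values are log2 intensities, background-corrected, normalized between arrays and summarized per probe set; the software version is not given in the sources used here. Of 45101 probe sets on the array, 45037 remained for testing once 64 control features had been removed, with no filter on intensity; 34945 were annotated to 1 gene symbol, 932 to several and 9160 are not named here. Pairwise comparisons used limma (version 3.58.1, R version 4.3.3) on the 8 arrays concerned (moderated variances, two-sided, Benjamini-Hochberg adjustment over all probe sets, adjusted p under 0.05), and the interaction on all 16 arrays. The procedure was tested on simulated data, where it recovered 76 to 95% of probe sets changed by 1 on the log2 scale. Wrong calls numbered 6 to 12 per comparison. The simulated probe sets varied independently and with the same spread in each group, unlike Il12b or Ccr7 here, so recovery in these tumors was not tested. The 10 genes and the gene lists were chosen with earlier results of these data known. Beside the members, 14 genes that act with them were read. From each list the gene with the smallest p in a comparison was to be named, and only part of these genes are printed. For each member, 3 genes of most similar pattern were sought. Alternatives were an all-array fit, trended and robust variances, scaling to the 75th percentile, a filter on intensity, array weights, a replicate block, averaging GEM replicates 3 and 4, whose titles carry the same animal number, and leaving out 1 array or the 3 with skin or muscle genes. Promoter sequences came from RefSeq tables of GRCm38.p6.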

Additional observations from a re-analysis of the deposited data

Results flagged for a closer look

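Among 84 groups of 4 tumors, 2 held a value far from the other 3, where chance flags about 1 group in 20. Xcl1, the ligand of Xcr1, was 5.71 log2 intensity in GEM replicate 4, against 6.00 to 6.03 in the other GEM tumors. Irf4 was 4.46 in anti-CD40 replicate 4, against 4.10 to 4.11 in the other anti-CD40 tumors.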

How the results depend on the processing

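Of 1032 values of the 9 members under alternative settings, 1017 kept their direction and their side of the threshold. Of the others, 1 passed it (Ccl22 without GEM/anti-CD40 replicate 3, 1.90 with an adjusted p of 0.0315 by limma) and 14 turned direction. The cause was not tested. The all-array fit, the trended and robust prior and the replicate block leave each log2 change as it was. Leaving out representatives named _x_at changed no member. The 1017 thus include values whose direction was fixed in advance. Leaving out 1 array, the change between GEM/anti-CD40 and control tumors ranged from -0.035 (without control replicate 4; -0.03 without GEM/anti-CD40 replicate 1) to 0.11 for Fscn1, which was -0.0075 with scaling to the 75th percentile, and from -0.40 to 0.13 for Ccl17, which was 0.06 without control replicate 4, 0.13 without GEM/anti-CD40 replicate 1 and 0.10 without replicate 3. Between GEM/anti-CD40 and GEM tumors, Ccl17 ranged from -0.59 to 0.00083, the last without GEM replicate 4. Between anti-CD40 and control tumors, Zbtb46 ranged from -0.11 (without anti-CD40 replicate 3) to 0.14, and Ccl22 from -0.18 (without anti-CD40 replicate 2) to 0.42, with -0.10 without the 3 arrays with skin or muscle genes. Between GEM and control tumors, Ccl17 ranged from -0.10 (without GEM replicate 4) to 0.38. In the interaction, Zbtb46 ranged from -0.21 to 0.0375 (without anti-CD40 replicate 3), and Cd209a from -0.027 (without anti-CD40 replicate 2) to 0.11, with -0.05 without the 3 arrays.

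The count of probe sets called between GEM/anti-CD40 and control tumors was 8. It was 44 with all 16 arrays in one fit, 13 with a trended and robust prior, 2 without the 3 arrays and 0 to 11 leaving out 1 array. Same-numbered tumors correlated at -0.27 to 0.27 over the comparisons. Between GEM/anti-CD40 and control tumors the 4 values were 0.17, 0.04, 0.23 and 0.12, with 3 of 4 tumors closest to their own number, a hint from the data and not from the design. Since 1 pair did not exceed 0.1, the tumors were taken to share only a number; with the replicate block 0 probe sets were called in each comparison. GEM against control gave 0 calls, but 1 with the filter on intensity, 4 with the trended and robust prior, 1 with array weights, 6 with GEM replicates 3 and 4 averaged, 8 without the 3 arrays and 0 to 8 leaving out 1 array. Anti-CD40 against control gave 0 calls, but 3 without the 3 arrays and 0 to 2 leaving out 1 array. GEM/anti-CD40 against GEM gave 0 calls, but 1 without the 3 arrays and 0 to 1 leaving out 1 array. With the filter on intensity, the 5 members below the median had no value.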
